A study of Mus musculus with 4 samples.

Results

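MHC class II molecules present peptides to CD4+ T cells. Described here in 4 tumour RNA libraries are 10 mouse genes for their chains, their peptide loading or their transcription. The 10 genes were chosen from a list set with earlier values of these same libraries in view, among 24444 genes in the table, of which 15246 had enough counts to be tested. They are H2-Aa, H2-Ab1, H2-Eb1, H2-Eb2, H2-DMa, H2-DMb1, H2-DMb2, H2-Oa, Cd74 and Ciita, and all 10 were among the genes tested. Because the same contrast chose them, their values are given as a description and no test is read from them.

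RNA was sequenced from tumours of CT26, a colon carcinoma line of BALB/c mice, taken at a volume of around 70 mm3. The CT26-shppp2r1a libraries (n = 3) came from tumours of cells with a short hairpin RNA to Ppp2r1a, which encodes the scaffold subunit of the phosphatase PP2A. The CT26-scr library (n = 1) came from a tumour of cells with a scrambled hairpin, and both hairpins were introduced in the cancer cells and not in the host, whose own cells are also in a tumour. With a single CT26-scr library there was no error on that side, and a feature of that tumour and an effect of the knockdown cannot be told apart. No label tells if each CT26-shppp2r1a tumour had a mouse of its own, so every SD and p measures only the spread between these libraries.

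A classical class II molecule pairs an alpha chain with a beta chain, and the mouse has the I-A pair (H2-Aa with H2-Ab1) and the I-E pair (H2-Ea with H2-Eb1). The invariant chain Cd74 holds the peptide groove on the way to the endosome, H2-DM exchanges its remnant for antigenic peptide, and H2-DO restrains H2-DM. The genes of I-A, I-E and H2-DM, and Cd74, are known to be switched on together by the transactivator Ciita. They are on in B cells, dendritic cells and macrophages constitutively and in epithelium after interferon-gamma. Ciita acts through a promoter module made of an X box and a Y box. The genes of H2-DO are not covered by this description. Levels below are in TPM, the share of a library's transcripts corrected for gene length, unless counts are named.

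Promoters of 7 of the 10 genes were found in the RefSeq table of build GRCm38.p6, and 6 of them are shown, 4 because they carry letters of both boxes of the module and H2-Aa and H2-Oa because they carry those of the Y box. Each window holds 77 bases around the Y box, read 5′ to 3′ on the strand of its gene, with capitals marking TGATTGG, an inverted CCAAT box, and AACNNATG, a core of the X box. The letters of both motifs were chosen after these promoters had been read. Each promoter here was searched for either motif on the strand of its gene, over the 250 bases before and the 50 after the start. For the shares over all promoters both strands were searched.
H2-Aa (chr17:34287857-34287933, minus strand): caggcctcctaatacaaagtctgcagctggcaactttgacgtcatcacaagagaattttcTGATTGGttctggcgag
H2-Eb1 (chr17:34305746-34305822, plus strand): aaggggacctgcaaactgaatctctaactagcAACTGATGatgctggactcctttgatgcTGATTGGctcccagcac
H2-Eb2 (chr17:34325513-34325589, plus strand): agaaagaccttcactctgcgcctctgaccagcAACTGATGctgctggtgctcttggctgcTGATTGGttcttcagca
H2-DMb1 (chr17:34153068-34153144, plus strand): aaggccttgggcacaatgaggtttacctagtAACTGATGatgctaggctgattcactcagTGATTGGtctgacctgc
H2-DMb2 (chr17:34145097-34145173, plus strand): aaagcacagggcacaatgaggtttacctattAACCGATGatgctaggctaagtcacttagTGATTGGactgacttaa
H2-Oa (chr17:34092274-34092350, plus strand): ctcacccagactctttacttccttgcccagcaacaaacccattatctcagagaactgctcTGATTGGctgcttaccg

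Among 32851 RefSeq promoters of this length, 8.86% held AACNNATG and 7.82% held TGATTGG on either strand. Both in this order on the same strand, with 10 to 40 bases between them, stood in 18 promoters or 0.0548%, and 5 of these belong to class II genes of the locus, namely H2-Eb1, H2-Eb2, H2-DMb1, H2-DMb2 and H2-Ob. On the strand of the gene, H2-Aa and H2-Oa held TGATTGG without the letters AACNNATG, and neither motif was in the windows of H2-DMa. X box sequences of other letters were not searched for, so this does not tell whether these genes have an X box. A match describes letters and not a bound site. The sequences are those of the reference genome, not of the tumours.

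The libraries themselves differed widely. Total expected counts were between 24726440 and 28950004, and Ppp2r1a stood at 40.2, 29.8 and 22.3 TPM in CT26-shppp2r1a replicates 1, 2 and 3, against 75.1 TPM in CT26-scr. Summed TPM of 7 small bowel enterocyte markers, among them the apolipoproteins Apoa4 and Apoa1, was 22160, 54910 and 83540 in the CT26-shppp2r1a libraries and 84070 in CT26-scr, so the labelled tumour libraries all held abundant transcripts of absorptive epithelium. Fabp6, the bile acid binding protein of the ileum, had 16, 37 and 4 counts in the CT26-shppp2r1a libraries and 25178 counts in CT26-scr, whereas Car1, a carbonic anhydrase of large bowel, had 24463, 7800 and 87 counts against 0. The part of such differences in tissue content in the class II values was not tested, and in bulk tissue fewer cells of a type and less RNA per cell cannot be told apart.

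Across the group, 9 of the 10 genes were higher in all 3 CT26-shppp2r1a libraries than in CT26-scr, H2-Oa being the exception. Of all genes tested, 43.6% lay above CT26-scr in all 3 libraries, and since the contrast chose the members nothing is read from the difference. The same 9 genes ran in 1 order, highest in replicate 1, then replicate 2, then replicate 3, and lowest in CT26-scr, as did 33.6% of all genes tested. Over the 10 genes, the median log2 ratio of TPM to CT26-scr was 3.19 in replicate 1, 2.41 in replicate 2 and 1.03 in replicate 3. The median fitted log2 fold change was 2.05 over the members, beside 0.06 over all genes tested. None of the 10 was called by the quasi-likelihood test of edgeR at an adjusted p of 0.05, where the background was 0.0% of genes, 556 genes had an unadjusted p under 0.05, and DESeq2 called 159. Leaving out CT26-shppp2r1a replicate 2 or replicate 3 changed this, and leaving out replicate 1 did not. Each of these fits rested on 2 CT26-shppp2r1a libraries and the 1 CT26-scr library. The calls that follow show only how far the outcome depends on the libraries and the method. Because the same contrast chose the 10 genes, no test is read from these calls. Without replicate 2 edgeR called H2-Eb1, where 0.879% of all genes were called, and without replicate 3 it called H2-Eb1, H2-DMb1, H2-DMa and Ciita, where 7.49% were. DESeq2 with all 4 libraries called H2-Eb1 and H2-DMb1, where 1.11% of genes with an adjusted p were called.

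**Figure D1:**
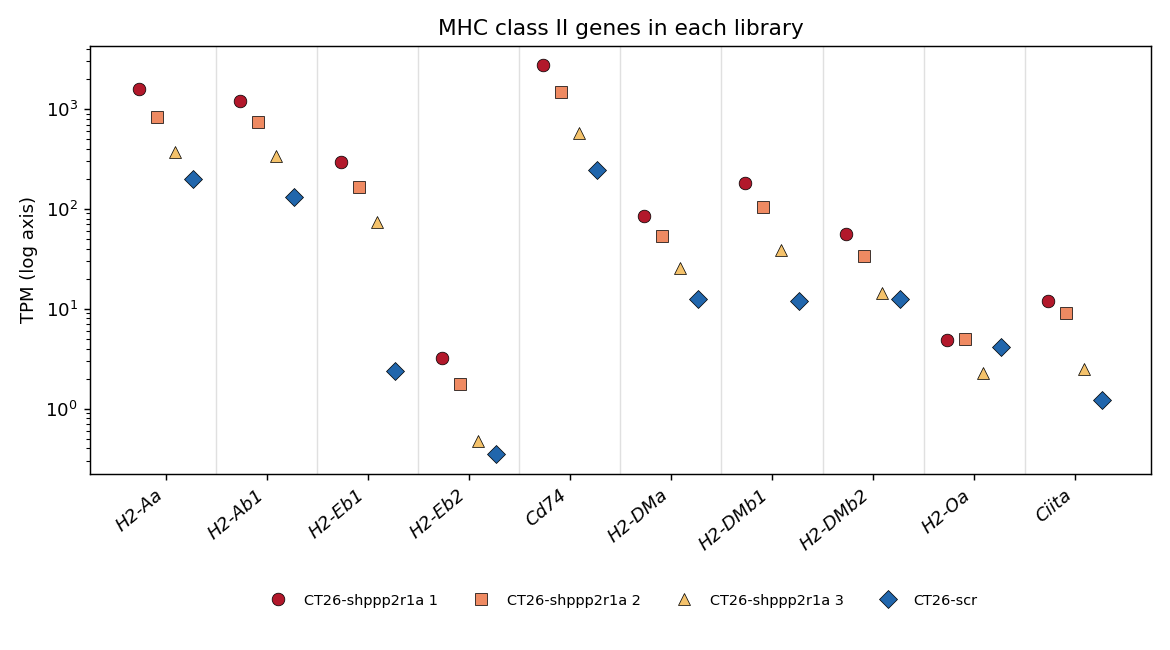
TPM of the 10 class II genes (log axis), with 1 point for each of the 3 CT26-shppp2r1a libraries and for the CT26-scr library. In 9 genes all 3 knockdown points lie above the control, in H2-Oa they lie on both sides of it, and H2-Eb1 shows the widest step, 73.4 TPM in replicate 3 against 2.37 TPM in CT26-scr.

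The I-A chains were abundant in every library. H2-Aa, the I-A alpha chain, stood at 1582, 834 and 375 TPM in CT26-shppp2r1a replicates 1, 2 and 3, against 200 TPM in CT26-scr. The mean of the CT26-shppp2r1a libraries was 931 ± 609 TPM (SD, n = 3), or 4.66-fold that of CT26-scr, and the SD was large because replicate 1 lay 4.22-fold above replicate 3. H2-Ab1, the I-A beta chain, stood at 1205, 746 and 343 TPM against 133 TPM, a mean of 765 ± 431 TPM (SD, n = 3) and 5.77-fold. Both chains kept close to each other, with an H2-Ab1 to H2-Aa ratio of 0.762, 0.895 and 0.913 in the CT26-shppp2r1a libraries and of 0.664 in CT26-scr, a range of 1.38-fold over the 4 libraries.

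H2-Eb1, the I-E beta chain, was the gene that left this pattern most. Its expected counts were 7315, 4451 and 1935 in CT26-shppp2r1a replicates 1, 2 and 3, against 65 in CT26-scr, which is 298, 165 and 73.4 TPM against 2.37 TPM. The CT26-shppp2r1a libraries were thus 126-fold, 69.8-fold and 31.0-fold above CT26-scr, and none came near it. The fit gave a log2 fold change of 5.85 (SE 0.94).

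Set against H2-Aa, H2-Eb1 was nearly constant within the knockdown and low in the control alone. The ratio of H2-Eb1 to H2-Aa was 0.189, 0.198 and 0.196 in the CT26-shppp2r1a libraries, a range of 1.05-fold while H2-Aa itself ranged 4.22-fold, and 0.0119 in CT26-scr. The mean ratio of 0.194 ± 0.005 (SD, n = 3) was 16.4-fold that of CT26-scr. As a share of the counts of both genes, H2-Eb1 made up 23.3% (95% exact Clopper-Pearson interval 22.8 to 23.8%), 24.2% (23.6 to 24.8%) and 23.98% (23.1 to 24.9%) in the CT26-shppp2r1a libraries and 1.87% (1.45 to 2.38%) in CT26-scr. The intervals cover counting error only and not the spread between tumours, so nothing is read from their separation. At the mean CT26-shppp2r1a ratio of counts, the 3403 H2-Aa counts of CT26-scr would have gone with 1065 counts of H2-Eb1, and 65 were present.

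**Figure D2:**
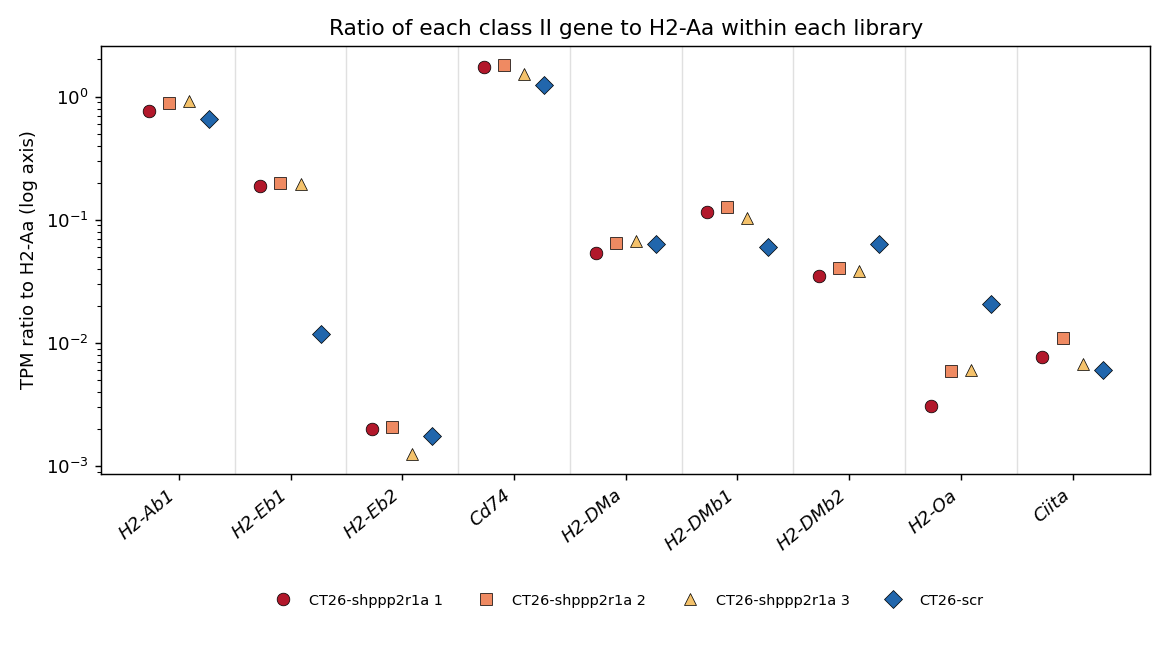
Ratio of TPM to H2-Aa (log axis) for the other 9 class II genes, with 1 point per library. H2-Eb1 lies between 0.189 and 0.198 in the 3 CT26-shppp2r1a libraries and at 0.0119 in CT26-scr, while H2-Ab1, H2-Eb2, H2-DMa and Cd74 stay within 1.68-fold over all 4 libraries. H2-DMb2 ranges 1.79-fold, Ciita 1.80-fold and H2-DMb1 2.12-fold. H2-Oa ranges 6.68-fold, with CT26-scr highest.

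The relatives of H2-Eb1 did not share its shortage. H2-Eb2, a second beta chain gene next to H2-Eb1, was low throughout at 3.19, 1.75 and 0.47 TPM in the CT26-shppp2r1a libraries, against 0.35 TPM in CT26-scr, with 163, 98 and 26 counts against 20. Its ratio to H2-Aa was 0.00202, 0.00210 and 0.00125 against 0.00175, so CT26-scr lay inside the range of the knockdown. The GENCODE transcripts of H2-Eb1 and H2-Eb2 had 80.7% identical bases over 576 aligned and 0 shared windows of 50 bases, and all counts of both genes were whole numbers. H2-Eb1 was 19.9%, 18.1% and 17.6% of the summed TPM of H2-Eb1 and H2-Ab1 in the CT26-shppp2r1a libraries, and 1.76% in CT26-scr.

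The I-E alpha chain was low in every library. H2-Ea is known to be transcribed in BALB/c, the strain on the labels, and to be silent in C57BL/6, the strain of the reference genome, where a deletion removes its promoter. The table lists the gene as H2-Ea-ps, with 38, 45 and 11 counts in the CT26-shppp2r1a libraries and 36 in CT26-scr, or 3.52, 3.80 and 0.95 TPM against 2.98 TPM. These values lay on both sides of CT26-scr, and H2-Ea-ps reached 0.0118, 0.0230 and 0.0129 of H2-Eb1 in the CT26-shppp2r1a libraries and 1.26 of it in CT26-scr. How many reads from BALB/c alleles of these polymorphic genes the reference takes up was not tested.

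Cd74, the invariant chain, was the most abundant of the 10 genes. It stood at 2740, 1494 and 570 TPM in CT26-shppp2r1a replicates 1, 2 and 3, against 246 TPM in CT26-scr, a mean of 1601 ± 1089 TPM (SD, n = 3) and 6.51-fold. Its ratio to H2-Aa was 1.73, 1.79 and 1.52 against 1.23. Against the sum of both I-A chains it was 0.983, 0.946 and 0.794 in the CT26-shppp2r1a libraries and 0.741 in CT26-scr, a range smaller than that of either level.

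H2-DM, the peptide exchange factor, is a pair of an alpha chain, H2-DMa, and a beta chain from either H2-DMb1 or H2-DMb2. H2-DMa stood at 85.6, 53.9 and 25.4 TPM in the CT26-shppp2r1a libraries and at 12.7 TPM in CT26-scr, and its ratio to H2-Aa of 0.0541, 0.0646 and 0.0678 against 0.0633 varied least of all members, 1.25-fold over 4 libraries. H2-DMb1 stood at 182, 106 and 39.0 TPM against 12.0 TPM, and H2-DMb2 at 55.7, 33.9 and 14.3 TPM against 12.6 TPM. Both beta genes were above CT26-scr in each CT26-shppp2r1a library, H2-DMb2 by as little as 1.13-fold in replicate 3.

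The split between the beta genes differed in CT26-scr. The ratio of H2-DMb1 to H2-DMb2 was 3.26, 3.12 and 2.73 in the CT26-shppp2r1a libraries and 0.950 in CT26-scr. These were the only 2 members with counts that were not whole, and their sums were whole, at 3975, 2558 and 944 against 401, so reads were divided between them and the split of either gene is uncertain. Their GENCODE transcripts had 95.5% identical bases over 849 aligned and shared 349 windows of 50 bases, 25.8% of those of H2-DMb1. The summed counts do not rest on the division of reads between them. Summed TPM still does in part, because TPM corrects each gene for its own length. The summed TPM of both was 238, 140 and 53.3 TPM against 24.6 TPM. Its ratio to H2-Aa of 0.150, 0.168 and 0.142 in the CT26-shppp2r1a libraries, against 0.123 in CT26-scr, showed no shift of the size seen for H2-Eb1.

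H2-Oa, the alpha chain of H2-DO, did not follow the other class II genes. It stood at 4.90, 4.95 and 2.25 TPM in the CT26-shppp2r1a libraries and at 4.13 TPM in CT26-scr, from 73, 81 and 36 counts against 69. The libraries overlapped, the mean was 0.977-fold that of CT26-scr, and the fitted log2 fold change of -0.37 turned to 0.01 when libraries were scaled by size alone. The ratio of H2-Oa to H2-Aa was 0.00310, 0.00594 and 0.00600 against 0.0207. H2-Ob, the beta chain of H2-DO and not one of the 10, stood at 2.85, 2.48 and 0.51 TPM against 0.89 TPM. Its counts were 114, 109 and 22 against 40. H2-Ob was 3.20-fold and 2.79-fold CT26-scr in replicates 1 and 2 and below it in replicate 3, with a fitted log2 fold change of 0.745 (SE 0.965). Both chains together made up 0.0906, 0.138 and 0.109 of H2-DMa in the CT26-shppp2r1a libraries and 0.397 in CT26-scr.

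Ciita, the transactivator, stood at 12.1, 9.11 and 2.52 TPM in CT26-shppp2r1a replicates 1, 2 and 3, against 1.21 TPM in CT26-scr. Its mean was 6.53-fold that of CT26-scr, near the 6.51-fold of Cd74, and replicate 3 was 2.08-fold above CT26-scr. The ratio of Ciita to H2-Aa was 0.00764, 0.0109 and 0.00672 against 0.00606, within 1.80-fold. Of the 9 ratios to H2-Aa, 6 stayed within 2-fold over all 4 libraries, and those of H2-Eb1, H2-DMb1 and H2-Oa did not.

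The locus was then walked in RefSeq order, to see whether neighbours of H2-Eb1 shared its difference. RefSeq lists 27 genes from H2-Oa to Notch4 on chromosome 17, of which 22 were in the table and tested, and H2-Eb1 lies at chr17:34305867-34316674 of GRCm38.p6, an annotation not taken from the table. On one side the nearest genes are H2-Aa, H2-Ab1 and H2-Ob, and on the other H2-Eb2, H2-Ea-ps and Btnl2. Btnl2, a butyrophilin-like gene of gut epithelium, stood at 47.4, 107 and 178 TPM in the CT26-shppp2r1a libraries and at 166 TPM in CT26-scr, with the libraries overlapping. None of these 6 neighbours had a step of the size of H2-Eb1.

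**Figure D3:**
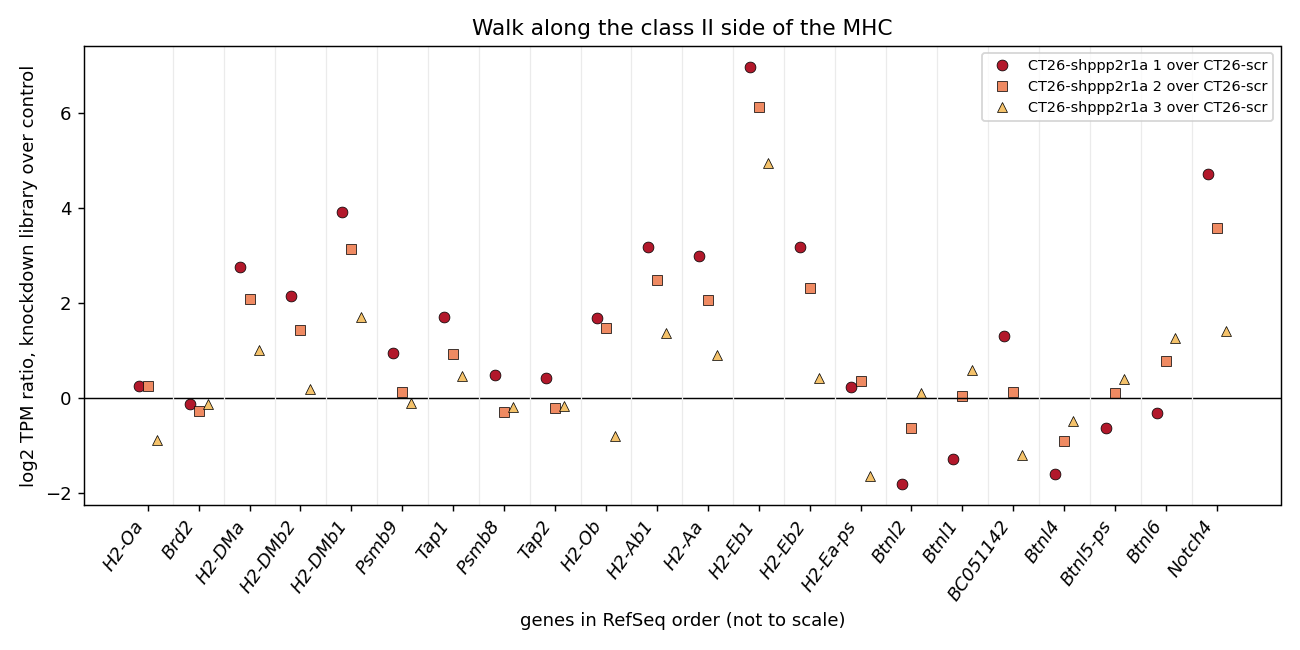
Log2 ratio of TPM in each CT26-shppp2r1a library over CT26-scr, for 22 genes from H2-Oa to Notch4 in RefSeq order (equal spacing, not to scale). H2-Eb1 stands highest, at 31.0-fold to 126-fold, and the genes on either side of it, H2-Aa and H2-Eb2, lie at 7.92-fold and 9.11-fold in replicate 1.

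Of the 14 genes of this stretch that are neither members nor absent from the fit, 6 were higher and 8 lower in the CT26-shppp2r1a libraries by the sign of the fit, with a median log2 fold change of -0.21 beside 0.06 over all genes tested. None was called. The extremes were Notch4, a Notch receptor, at 3.17, 1.43 and 0.32 TPM in the CT26-shppp2r1a libraries and 0.12 TPM in CT26-scr (log2 fold change 3.29, SE 1.37), and the butyrophilin-like Btnl4, at 91.7, 149 and 198 TPM against 278 TPM (log2 fold change -1.14, SE 0.65). Of the class I processing genes set between H2-DMb1 and H2-Ob, the peptide transporter subunit Tap1 stood at 115, 67.1 and 48.7 TPM against 35.4 TPM, above CT26-scr in each library, while the immunoproteasome subunit Psmb8 stood at 378, 221 and 238 TPM against 271 TPM and overlapped it.

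Regulators of class II transcription were mixed. Of 20 listed genes, 19 were tested, 11 had a positive and 8 a negative fitted value, the median log2 fold change was 0.10, and none was called. Ifng, the interferon-gamma gene and the largest of the list, had 62, 33 and 2 counts in the CT26-shppp2r1a libraries and none in CT26-scr. A count of 0 allows up to 3 counts, a limit that the 2 counts of replicate 3 do not pass. With CT26-scr set at 3 counts, the log2 fold change of Ifng was 3.10, still the largest of the list. The median of 0.10 could therefore not move, and nothing is read from its staying. Rfxank, a subunit of the complex that binds the X box, was the smallest, at 9.54, 12.5 and 16.9 TPM against 19.5 TPM (log2 fold change -0.82, SE 0.54). The other 2 subunits were added after their values were seen. Rfx5 stood at 5.21, 4.33 and 2.72 TPM against 1.78 TPM, above it in each library, and Rfxap at 7.03, 4.64 and 5.72 TPM against 6.72 TPM, on both sides of it.

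Genes of endosomal loading and turnover centred near 0. Of 15 tested, 8 had a positive and 7 a negative fitted value, with a median log2 fold change of 0.02 and no call. Sppl2a, the protease that clears the last fragment of Cd74, stood at 132, 81.5 and 63.0 TPM in the CT26-shppp2r1a libraries and 42.3 TPM in CT26-scr (log2 fold change 0.78, SE 0.43). March8, a ubiquitin ligase of the family that removes class II from the surface, stood at 45.3, 59.8 and 82.0 TPM against 82.1 TPM (log2 fold change -0.62, SE 0.60).

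Class I processing genes gave 3 positive and 5 negative fitted values of 8 tested, with a median log2 fold change of -0.17 and no call. Nlrc5, the transactivator of class I genes and a relative of Ciita, was the largest at 9.46, 3.89 and 0.78 TPM against 0.71 TPM, a log2 fold change of 2.30 (SE 1.33). B2m, the light chain of class I, was the smallest at 3952, 3486 and 4535 TPM against 4210 TPM, with -0.34 (SE 0.68). Nlrc5 was above CT26-scr in all 3 libraries, with replicate 3 close to it, and B2m lay on both sides of it.

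Genes that kept the most constant ratio to H2-Aa were sought over the 4 libraries, which is few points and shared depth, so the order is a description. Among 10975 genes at 1 TPM or more in every library, the smallest ranges of the log2 ratio were those of Thy1 (0.09), 1500009L16Rik (0.13), Mrps6 (0.16), Psat1 (0.17) and Arsb (0.17). Thy1, a surface glycoprotein of T cells and fibroblasts, stood at 18.6, 9.77 and 4.19 TPM in the CT26-shppp2r1a libraries and 2.38 TPM in CT26-scr. Of the members, H2-DMa had a range of 0.33, H2-Ab1 of 0.46 and Cd74 of 0.54, and 0.283%, 0.574% and 0.866% of genes had smaller ranges. H2-Eb1 had a range of 4.06, and 91.8% of genes kept closer to H2-Aa than it did.

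The genes nearest to H2-Eb1 were Gm4737 (range 1.33), Akr1b8 (1.99), Gm14850 (2.10), Mboat1 (2.34) and Gm21498 (2.74), all of them low in CT26-scr. Akr1b8, an aldo-keto reductase, stood at 126, 54.9 and 23.6 TPM in the CT26-shppp2r1a libraries and 3.03 TPM in CT26-scr, and Mboat1, an acyltransferase, at 116, 42.4 and 8.07 TPM against 1.32 TPM. The nearest member was H2-DMb1, with a range of 3.25.

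Like the class II sum, B cell, macrophage, dendritic cell and large bowel marker sums lay above CT26-scr in CT26-shppp2r1a replicates 1 and 2. The summed TPM of the 10 genes was 6169, 3449 and 1445 in the CT26-shppp2r1a libraries and 623.8 in CT26-scr. The sum of 8 B cell markers was 133, 64.2 and 11.7 TPM against 16.2 TPM, and that of 8 macrophage markers 507, 265 and 163 TPM against 161 TPM. In replicate 3 the B cell, dendritic cell and large bowel sums lay below CT26-scr. The macrophage sum was at 1.02-fold there, while the class II sum lay above CT26-scr.

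Within these lists the markers did not move as one, and those named here were picked out after their values were seen. Most of the B cell sum was the antigen receptor subunits Cd79a, at 90.6, 35.8 and 6.73 TPM in the CT26-shppp2r1a libraries and 3.95 TPM in CT26-scr, and Cd79b, at 31.7, 17.3 and 3.94 TPM against 6.35 TPM. Only 1 of the 8 B cell markers, Cd79a, was above CT26-scr in all 3 libraries, and the low-affinity IgE receptor Fcer2a was below it in each, at 0.33, 0.38 and 0.09 TPM against 0.87 TPM. Of the 8 macrophage markers 4 were above CT26-scr in all 3 libraries, while the phagocytic receptor Mertk ran the other way in replicates 1 and 2, at 10.8, 21.6 and 44.3 TPM against 42.7 TPM. Among all genes tested 43.6% were above CT26-scr in all 3 libraries, so neither count is read as a result about these cells.

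The other lists were the dendritic cell markers, at 23.2, 12.7 and 9.04 TPM in the CT26-shppp2r1a libraries and 10.9 TPM in CT26-scr, and the T cell markers, at 38.9, 30.7 and 59.0 TPM against 44.6 TPM, with 4 of 5 in the table. Large bowel markers summed to 2501, 1040 and 260.9 TPM against 372 TPM, and the fibroblast and carcinoma markers to 9968, 12000 and 11640 TPM against 10640 TPM. Nearly all of that last sum was the epithelial genes Epcam, Krt8 and Krt20. The stromal genes of the list were higher in replicates 1 and 2, with the collagen Col3a1 at 124, 57.3 and 20.7 TPM against 21.5 TPM, Col1a1 at 25.2, 10.1 and 2.56 TPM against 2.85 TPM and the intermediate filament Vim at 103, 63.2 and 32.6 TPM against 26.7 TPM. Pax5 was at 0 in CT26-shppp2r1a replicate 3 and Car1 in CT26-scr. The part of these cell types in the class II levels was not tested.

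**Figure D4:**
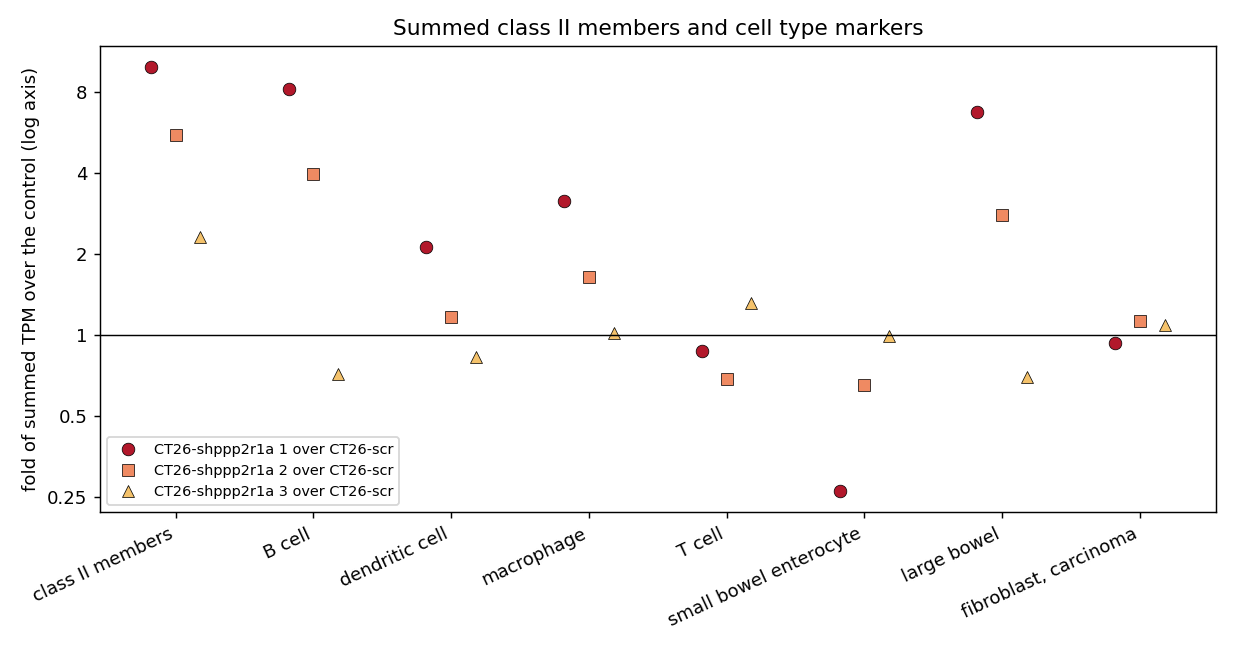
Fold of summed TPM in each CT26-shppp2r1a library over CT26-scr (log axis) for the 10 class II genes and for 7 marker lists, with 1 point per library. B cell and macrophage markers stand above 1 in replicates 1 and 2, at 8.18-fold and 3.15-fold in replicate 1, and at 0.720-fold and 1.02-fold in replicate 3. Dendritic cell and large bowel markers do so too, at 2.12-fold and 6.73-fold in replicate 1, and at 0.829-fold and 0.702-fold in replicate 3.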

How the data were processed

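RNA of 3 CT26-shppp2r1a tumours and 1 CT26-scr tumour was analysed from 1 gene table. The authors deposited expected counts, which need not be whole, together with TPM and FPKM for each library. The table also holds the authors' fold and a posterior probability of equal expression, which were not used. Bowtie 0.12.2 and the builds mm8 and mm10 are named in the submitters' processing notes with no role. Which tool counted the reads, and on which annotation, is not given in the sources used here. Between 5.3% and 5.89% of genes had counts that were not whole, and counts were rounded before testing.

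Genes were filtered by filterByExpr (minimum count 10, 15246 kept) and TMM factors were 1.30, 1.06 and 0.867 for CT26-shppp2r1a and 0.844 for CT26-scr. In R 4.3.3, edgeR 4.0.16 was run with its two-sided quasi-likelihood test, with Benjamini-Hochberg adjustment over all genes tested and a threshold of 0.05. Each SE was the absolute log2 fold change divided by the square root of the F statistic of that test. The fit was tested on simulated data of low dispersion, which does not show its power at the spread of these libraries. Its residual degrees of freedom came from the CT26-shppp2r1a libraries alone.

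Alternatives were RLE factors, library size alone, no filter, a filter of 50 counts, DESeq2 1.42.0, limma 3.58.1 on log2(FPKM + 1), and leaving out each CT26-shppp2r1a library. Ratios to H2-Aa were taken within each library on TPM, and also on FPKM, counts and TPM + 1. Members and lists were chosen with earlier results of these data known. Genes named by rule were the members, H2-Ob and H2-Ea-ps, the 5 genes nearest H2-Aa and H2-Eb1 in ratio, the neighbours of H2-Eb1, and the extremes of each list. The rule was not kept throughout. Not all extremes of the marker lists are named. Other genes, among them Tap1, Psmb8, Rfx5, Rfxap and some cell type markers, were named outside it. Promoters came from RefSeq (GRCm38.p6) and transcripts from GENCODE M21.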

Additional observations from a re-analysis of the deposited data

How the results depend on the processing

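Of 90 fitted values of the 10 class II genes under 9 alternatives, 89 kept their direction, and H2-Oa turned to 0.007 when libraries were scaled by size alone. The median log2 fold change of the 10 genes was 2.05, and 1.64 to 2.40 with 1 CT26-shppp2r1a library left out. The count of genes called was 0 by edgeR, 159 by DESeq2 (132 higher and 27 lower), and between 0 and 1142 with 1 library left out. It was 134 without CT26-shppp2r1a replicate 2 and 1142 without replicate 3, where 774 were higher and 368 lower. The cause was not tested.

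Scaling by library size alone moved the median of all genes to 0.40, and limma on log2(FPKM + 1) to 0.21, from 0.06. Under library size alone the median of the class II transcription list was 0.46, of loading and turnover 0.40, of class I processing 0.16 and of the locus without members 0.083. Under limma the last 2 lists were at 0.148 and 0.041. The loading and turnover median was -0.013 under RLE factors and under DESeq2, and -0.031 to 0.062 with 1 library left out. The medians of 0.02 for loading and turnover, -0.17 for class I processing and -0.21 for the locus without members therefore have no firm sign.

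The ratio of H2-Eb1 to H2-Aa, 16.4-fold higher in CT26-shppp2r1a, was 11.6-fold on TPM + 1. With denominators chosen after seeing the data it was 12.7-fold on H2-Ab1, 12.1-fold on Cd74 and 16.8-fold on H2-DMa. At 5 TPM in every library, 1 of the 5 genes nearest to H2-Aa was shared with the list at 1 TPM, and H2-Eb1 itself was under that minimum in CT26-scr. No paired analysis was possible because the CT26-scr group has 1 library.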
